A study of Mus musculus with 19 samples.

Results

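Germinal center genes of the spleen are described here by 7 members of the deposited expression table: Bcl6, Mybl1, S1pr2, Gcsam, Rgs13, Fas and Nuggc. They were chosen by gene symbol, and 7 of 27179 listed genes were members. PolyA RNA of splenocytes was sequenced in mice of the FCG model, named for its 4 core genotypes, 1 week after immunization, with 1 library per mouse, to separate the sex chromosome complement (XX or XY) from gonadal sex. In FCG mice the testis-determining gene Sry is deleted from the Y chromosome and carried as a transgene on an autosome, so that the gonads do not follow the sex chromosomes. The background was C57BL/6J.

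The 4 groups were XXF (XX mice with ovaries, n = 5), XYF (XY mice with ovaries, n = 4), XXM (XX mice with testes, n = 5) and XYM (XY mice with testes, n = 5). All 19 mice received heat-killed Streptococcus pneumoniae (HKSP) into the peritoneal cavity, and there was no unimmunized group, so a value shows a level after immunization and not a response to it. Both male groups carry the Sry transgene, and both XY groups carry the Y chromosome that lacks Sry. Spleens were dissociated whole and red blood cells were lysed before RNA was extracted. No source used here gives the ages. The published methods name a KAPA stranded kit and the sample labels a NEBNext Ultra kit. Titles of the XXM libraries carry an extra tag whose meaning is not given. No batch is given, and the libraries of each group stand together in the running numbers, so a batch and a group cannot be told apart.

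Germinal centers are sites in B cell follicles where activated B cells divide, mutate their antibody genes and are selected with help from follicular helper T cells. Bcl6 is the transcriptional repressor on which both germinal center B cells and follicular helper T cells depend. The cells are kept in the center by inhibitory migration signals, and those that are not selected die, in part through death receptors.

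Library sizes ran from 11263753 reads (XYF mouse F6) to 19962022 reads (XYM mouse 13), with a median of 17391536. Levels are given as RPKM, reads scaled to gene length and to library size, which can be compared between genes. Differences are given on the scale of log2(RPKM + 1). A gene is called different when its adjusted p over the 14186 genes tested was under 0.1 and its difference exceeded 1.5-fold on this scale, by limma. All 7 members passed the filter on low values.

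B cell markers were present in every library: 8 of 8 were listed, their summed level ran from 1364 to 4395 RPKM, and Cd79b was the most abundant (mean 865 RPKM). Of 6 markers of follicular dendritic and stromal cells, 5 were listed and 3 passed the filter. Their summed level was 11.3 to 18.1 RPKM, with Clu the most abundant at a mean of 7.70. The stromal markers Pdpn (mean 0.0305 RPKM, at 0 in 12 mice) and Madcam1 (mean 0.0837 RPKM) were near 0.

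A pair of libraries stood apart from the rest. The 8 myeloid markers, led by the neutrophil gene S100a9, summed to 45673 RPKM in XYF mouse F9 and to 46343 in XYM mouse 9, against 3124 to 16171 in the other 17 mice. The summed NK cell markers were lowest in the same mice, at 109 and 85.6 RPKM. For each comparison, member differences are also given without this pair; marker sums and ratios to them are given with every mouse.

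The member with the highest mean level over 19 mice was Bcl6 (16.7 RPKM, at the 63.2 percentile of the tested genes), followed by Fas (11.2), S1pr2 (4.90), Rgs13 (4.30), Nuggc (3.59), Gcsam (3.10) and Mybl1 (1.87, at the 19.4 percentile). Counts behind the values ran from 16 reads, for Mybl1, to 2017 reads, for Bcl6. The genes lie on 5 autosomes, with Bcl6 and Gcsam on chromosome 16 and Mybl1 and Rgs13 on chromosome 1.

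**Figure D1:**
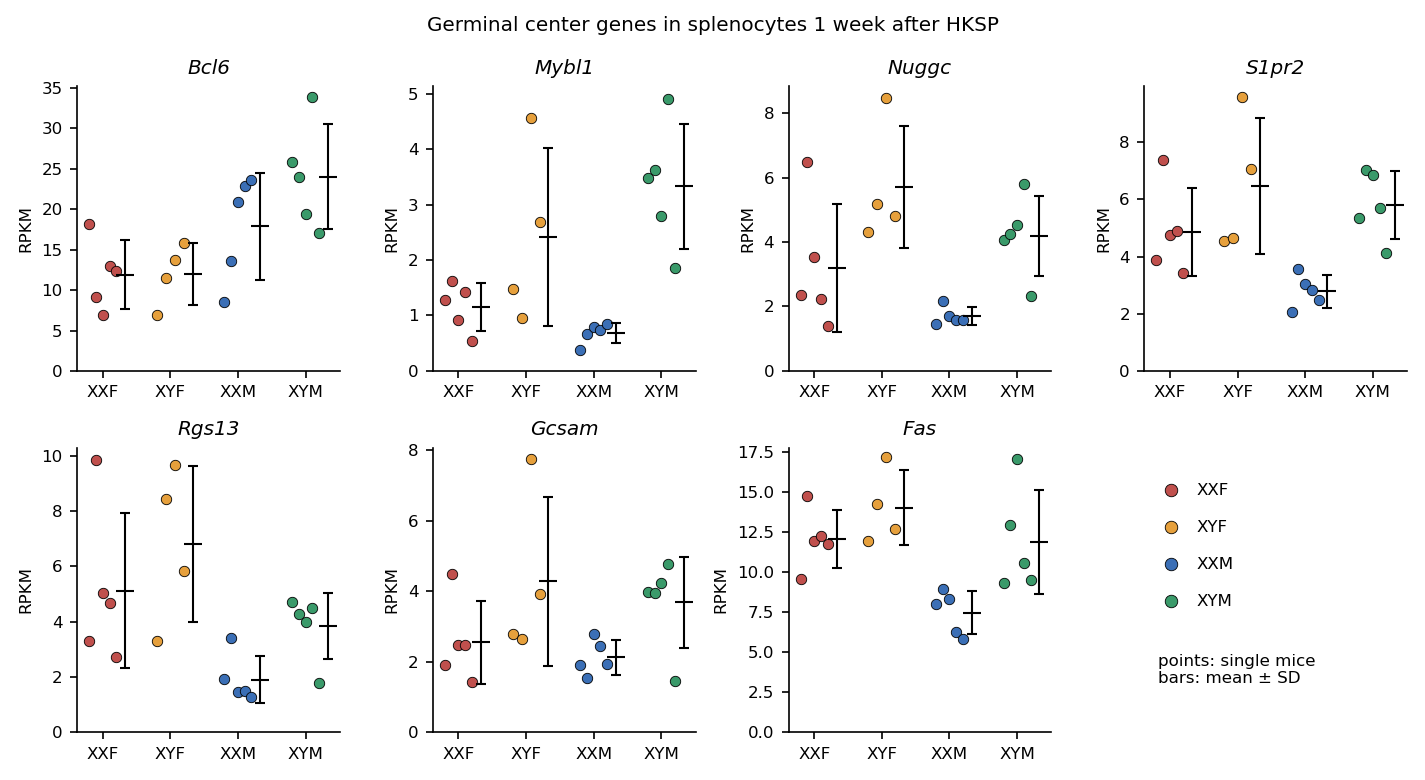
RPKM of each member (vertical axes, from 0) in single mice (points) by group, with the mean and SD as bars. For Mybl1, Nuggc, S1pr2 and Fas every XXM mouse lies under every XYM mouse. The share of all tested genes whose groups likewise do not overlap was not counted. For Bcl6 the XYM mean (24.1) is the highest of the 4 groups.

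Bcl6 (Entrez 12053, chr16:23965050-23988866) encodes the repressor named above. In females, its level was 18.1, 9.09, 6.90, 13.04 and 12.4 RPKM in XXF mice F1 to F5 and 6.86, 11.5, 13.7 and 15.8 in XYF mice F6 to F9. In males, it was 8.46, 13.5, 20.9, 22.9 and 23.6 RPKM in XXM mice 2, 5, 6, 7 and 8 and 25.9, 24.0, 19.5, 33.9 and 17.01 in XYM mice 12, 13, 15, 16 and 9. Both female groups lay low and overlapped each other, and both male groups reached higher, with XXM mice 2 and 5 and XYM mouse 9 within the female range. Group means fell in the order XYM (24.1 ± 6.54 RPKM, SD, n = 5), XXM (17.9 ± 6.60, n = 5), XYF (11.97 ± 3.83, n = 4) and XXF (11.9 ± 4.27, n = 5), and no 2 neighbours in that order differed by more than the larger of their SDs.

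Bcl6 was higher in males than in females over both complements, by 0.75 on the log2 scale (SE 0.21, limma adjusted p = 0.0141, exact permutation p = 0.00485), with 7 of 10 male mice above every female mouse. The ratio of mean RPKM was 1.76. The XX and XY groups did not pass the test in either gonadal sex. In females the difference was -0.02 (95% interval -0.65 to 0.62, adjusted p = 0.981), and its sign turned with array weights (0.069), without XYF mouse F9 and XYM mouse 9 (0.13), and without XXF mouse F2 or F3 or XYF mouse F8 or F9 alone (up to 0.14). In males XXM minus XYM was -0.46 (95% interval -1.06 to 0.14, adjusted p = 0.294).

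Mybl1 (Entrez 17864, chr1:9667407-9700439) encodes A-MYB, a transcription factor of germinal center B cells and of male germ cells. Female mice held 1.28, 1.62, 0.923, 1.42 and 0.541 RPKM in XXF mice F1 to F5 and 1.47, 0.947, 4.56 and 2.68 in XYF mice F6 to F9. Male mice held 0.370, 0.662, 0.799, 0.738 and 0.837 RPKM in XXM mice 2, 5, 6, 7 and 8 and 3.48, 3.63, 2.79, 4.91 and 1.85 in XYM mice 12, 13, 15, 16 and 9. The male groups did not overlap, while XYF mice F6 and F7 lay within the XXF range and mice F8 and F9 above it. Mean levels were 3.33 ± 1.13 RPKM in XYM (SD, n = 5), 2.41 ± 1.60 in XYF (n = 4), 1.16 ± 0.427 in XXF (n = 5) and 0.681 ± 0.186 in XXM (n = 5); of these neighbours only XXF and XXM differed by more than the larger of their SDs.

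In males, 4 of the 7 members were called lower in XX than in XY mice, and 2.96% of all tested genes were called in that comparison. Mybl1 had the lowest difference, -1.33 on the log2 scale (SE 0.24, limma adjusted p = 0.0130), lower in 5 of 5 XXM mice than in any XYM mouse. The mean RPKM in XYM was 4.89 times that in XXM. Its exact permutation p was 0.00794, the smallest that 252 arrangements of 5 against 5 mice allow with a two-sided test. The call held with each of the 19 mice left out in turn, and limma-voom on recovered read counts put the difference at -2.22. In bulk samples fewer cells of a type and less RNA per cell cannot be told apart.

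Nuggc (Entrez 100503545, chr14:65593499-65648444) encodes a nuclear GTPase found in germinal center B cells. In females, its level was 2.36, 6.48, 3.52, 2.24 and 1.39 RPKM in XXF mice F1 to F5 and 4.32, 5.19, 8.48 and 4.81 in XYF mice F6 to F9. In males, it was 1.45, 2.18, 1.71, 1.58 and 1.59 RPKM in XXM mice 2, 5, 6, 7 and 8 and 4.07, 4.23, 4.51, 5.79 and 2.33 in XYM mice 12, 13, 15, 16 and 9. The male groups did not overlap; in females 4 of 5 XXF mice lay under every XYF mouse, and XXF mouse F2 lay above 3 of them. The order of means was XYF (5.70 ± 1.89 RPKM, SD, n = 4), XYM (4.19 ± 1.24, n = 5), XXF (3.20 ± 1.99, n = 5) and XXM (1.70 ± 0.281, n = 5), with no neighbours apart by more than the larger SD.

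Nuggc was called lower in XXM than in XYM mice, at -0.91 on the log2 scale (SE 0.25, limma adjusted p = 0.0727, exact p = 0.00794), in 5 of 5 XXM mice, with a mean RPKM 2.46 times as high in XYM. Without XXM mouse 2, 5 or 6, or XYM mouse 12, 13 or 16, its adjusted p lay between 0.126 and 0.180 and the call was lost. In females XXF minus XYF was -0.75 (95% interval -1.30 to -0.20), with a limma adjusted p of 0.161 and an exact p of 0.0794, and it passed the thresholds without XXF mouse F2 (-0.99, adjusted p = 0.0558) and with array weights (-1.11, adjusted p = 0.0647).

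S1pr2 (Entrez 14739, chr9:20965952-20976793) encodes the sphingosine 1-phosphate receptor that holds B cells in the germinal center by inhibiting migration. The level in females was 3.87, 7.38, 4.75, 4.88 and 3.42 RPKM in XXF mice F1 to F5 and 4.54, 4.65, 9.59 and 7.07 in XYF mice F6 to F9. That in males was 2.05, 3.57, 3.03, 2.82 and 2.47 RPKM in XXM mice 2, 5, 6, 7 and 8 and 5.34, 7.03, 6.86, 5.69 and 4.14 in XYM mice 12, 13, 15, 16 and 9. Every XXM mouse lay under every XYM mouse, and in females the groups overlapped, with XYF mouse F8 the highest of all. Means were 6.46 ± 2.39 RPKM in XYF (SD, n = 4), 5.81 ± 1.19 in XYM (n = 5), 4.86 ± 1.53 in XXF (n = 5) and 2.79 ± 0.574 in XXM (n = 5), and XXM lay under its neighbour by more than the larger SD.

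S1pr2 was called lower in XXM than in XYM mice, at -0.84 on the log2 scale (SE 0.20, limma adjusted p = 0.0509, exact p = 0.00794), in 5 of 5 XXM mice, and its mean RPKM was 2.08 times as high in XYM. This call was lost without XXM mouse 2 or XYM mouse 12, 13 or 16, where its adjusted p was 0.103 to 0.145. In females the difference was -0.33 (95% interval -0.77 to 0.10, adjusted p = 0.388, exact p = 0.262).

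Rgs13 (Entrez 246709, chr1:144137386-144177372) encodes a regulator of G protein signaling that dampens chemokine receptor responses in germinal center B cells. In females, its level was 3.32, 9.86, 5.03, 4.69 and 2.73 RPKM in XXF mice F1 to F5 and 3.32, 8.43, 9.67 and 5.82 in XYF mice F6 to F9. In males, it was 1.93, 3.40, 1.45, 1.49 and 1.29 RPKM in XXM mice 2, 5, 6, 7 and 8 and 4.71, 4.28, 3.99, 4.50 and 1.79 in XYM mice 12, 13, 15, 16 and 9. XYM mouse 9 lay within the XXM range, the other 4 XYM mice lay above it, and the female groups overlapped throughout. Means were 6.81 ± 2.82 RPKM in XYF (SD, n = 4), 5.13 ± 2.81 in XXF (n = 5), 3.85 ± 1.19 in XYM (n = 5) and 1.91 ± 0.865 in XXM (n = 5); XXM lay under XYM by more than the larger SD.

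Rgs13 was lower in males than in females over both complements, at -0.83 on the log2 scale (SE 0.21, limma adjusted p = 0.00920, exact permutation p = 0.00195), with 10 of 10 male mice under the female median and mean RPKM 2.04 times as high in females. XXM minus XYM was -0.74 (95% interval -1.35 to -0.12, limma adjusted p = 0.133, exact p = 0.0238). Without XYM mouse 9 that difference was -0.93 with an adjusted p of 0.0756 and passed both thresholds. In females it was -0.37 (95% interval -1.03 to 0.28, adjusted p = 0.517).

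Gcsam (Entrez 14525, chr16:45610440-45622867) encodes a germinal center signaling and motility adaptor. Among females it stood at 1.90, 4.50, 2.46, 2.48 and 1.43 RPKM in XXF mice F1 to F5 and 2.80, 2.65, 7.76 and 3.92 in XYF mice F6 to F9. Among males it stood at 1.91, 1.55, 2.78, 2.45 and 1.94 RPKM in XXM mice 2, 5, 6, 7 and 8 and 3.99, 3.96, 4.24, 4.78 and 1.47 in XYM mice 12, 13, 15, 16 and 9. XYM mouse 9 lay under every XXM mouse and the other 4 XYM mice above every one. Means were 4.28 ± 2.39 RPKM in XYF (SD, n = 4), 3.69 ± 1.28 in XYM (n = 5), 2.56 ± 1.17 in XXF (n = 5) and 2.13 ± 0.485 in XXM (n = 5), with no neighbours apart by more than the larger SD. Gcsam was not called in any of the 5 comparisons: XXM minus XYM was -0.54 (95% interval -1.09 to 0.01, limma adjusted p = 0.192, exact p = 0.0714), and without XYM mouse 9 it was -0.76 with an adjusted p of 0.0770, past both thresholds.

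Fas (Entrez 14102, chr19:34290647-34327775) encodes the death receptor that germinal center B cells carry at high levels. Its level in females was 9.57, 14.7, 11.9, 12.2 and 11.8 RPKM in XXF mice F1 to F5 and 11.9, 14.2, 17.2 and 12.7 in XYF mice F6 to F9. Its level in males was 7.97, 8.96, 8.32, 6.25 and 5.83 RPKM in XXM mice 2, 5, 6, 7 and 8 and 9.33, 12.9, 17.01, 10.6 and 9.47 in XYM mice 12, 13, 15, 16 and 9. All XXM mice lay under all mice of the other 3 groups. Means were 13.99 ± 2.33 RPKM in XYF (SD, n = 4), 12.04 ± 1.82 in XXF (n = 5), 11.9 ± 3.22 in XYM (n = 5) and 7.47 ± 1.36 in XXM (n = 5), and XXM lay under XYM by more than the larger SD.

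Fas was called lower in XXM than in XYM mice at the edge of the fold threshold, at -0.59 on the log2 scale (SE 0.16, limma adjusted p = 0.0711, exact p = 0.00794), in 5 of 5 XXM mice, with a mean RPKM 1.59 times as high in XYM. Leaving out any XXM mouse, or XYM mouse 12, 13, 15 or 16, ended the call, with values from -0.66 to -0.46. In males minus females the difference was -0.43 (SE 0.11, adjusted p = 0.0105), under the fold threshold, and in females XXF minus XYF was -0.20 (95% interval -0.55 to 0.15, adjusted p = 0.516).

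The male count rested on single mice. It was 1, Mybl1, without XXM mouse 2 or XYM mouse 12, 13 or 16, and 2 without XXM mouse 5 or 6. It was 6 without XYM mouse 9, where Rgs13 and Gcsam joined. Without XXM mouse 7 or 8 or XYM mouse 15 it was 3. The count over all tested genes was 420 with every mouse, 51 without XXM mouse 2, 82, 64 and 88 without XYM mice 12, 13 and 16, 84 and 97 without XXM mice 5 and 6, 643 and 622 without XXM mice 7 and 8, 1213 without XYM mouse 15 and 778 without XYM mouse 9. Without XYF mouse F9 and XYM mouse 9 together it was also 6, with Mybl1 at -1.47 (adjusted p = 0.00494), Nuggc at -1.06, S1pr2 at -0.94, Rgs13 at -0.93, Gcsam at -0.76 and Fas at -0.65, and 876 genes called over all tested. Of the 7 members, 5 had an unadjusted limma p under 0.05 in males, and limma-voom on recovered read counts called 4. The median difference of the members was -0.74, against 0.01 over all tested genes.

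In females, 0 of the 7 members were called between XXF and XYF, and 1.38% of all tested genes were called. By limma 2 members, Mybl1 and Nuggc, had an unadjusted p under 0.05, and limma-voom called 0. Mybl1 was at -0.57 (95% interval -1.10 to -0.04, limma adjusted p = 0.243, exact p = 0.135), and passed both thresholds without XYF mouse F7 (-0.80, adjusted p = 0.0672). Nuggc passed them without XXF mouse F2, at -0.99 (adjusted p = 0.0558). The median of the members was -0.37, against 0.06 over all tested genes, and all 7 values were below 0, Bcl6 with a sign that turned under some alternatives. Without XYF mouse F9 and XYM mouse 9 the count was 0 as well, with Nuggc at -0.81, Gcsam at -0.53, Mybl1 at -0.50, Rgs13 at -0.41, S1pr2 at -0.28, Fas at -0.24 and Bcl6 at 0.13. Over all tested genes 196 were called with every mouse, 850 without XYF mouse F7 and 136 without XXF mouse F2, where a member joined, 127 without the pair of mice, and 56 (without XYF mouse F9) to 850 with 1 mouse left out. The smallest exact p that 5 against 4 mice allow is 0.00794.

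Over both gonadal sexes, 3 of the 7 members were called lower in XX than in XY mice, and 1.72% of all tested genes were called. Mybl1 was at -0.95 (SE 0.17, limma adjusted p = 0.00526, exact permutation p = 0.000535), with 10 of 10 XX mice under the XY median, and at -1.58 with limma-voom. Nuggc was at -0.83 (SE 0.18, adjusted p = 0.0189) and S1pr2 at -0.59 (SE 0.14, adjusted p = 0.0356), each with 9 of 10 XX mice under that median. S1pr2 lay at the fold threshold, and its call was lost, with values from -0.57 to -0.49, without XXF mouse F1 or F5, XYF mouse F8 or F9, XXM mouse 2 or 8, or XYM mouse 13 or 15. Rgs13 (-0.55, adjusted p = 0.145) joined without XXF mouse F2 (-0.67, adjusted p = 0.0893) or XYF mouse F6 (-0.68, adjusted p = 0.0936). Gcsam (-0.54, adjusted p = 0.121) joined without XXF mouse F2 (-0.62, adjusted p = 0.0957), XYF mouse F7 (-0.61, adjusted p = 0.0627) or XYM mouse 9 (-0.64, adjusted p = 0.0517). Without XYF mouse F9 and XYM mouse 9, Mybl1 was at -0.98, Nuggc at -0.93, S1pr2 at -0.61 and Gcsam at -0.64, all called, and Rgs13 at -0.67, Fas at -0.45 and Bcl6 at -0.22, not called. Over all tested genes 244 were called with every mouse, 204, 223, 518 and 218 without XXF mouse F2, XYF mice F6 and F7 and XYM mouse 9, where Rgs13, Gcsam or both joined, 148 (without XYF mouse F9) to 408 (without XYM mouse 15) where S1pr2 was lost, and 185 without the pair of mice. This comparison shares all its mice with those in females and in males, so its values are not a separate test.

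Whether the XX and XY difference itself differed between females and males was tested as an interaction, and 0 of the 7 members were called there, with 0.0846% of all tested genes called. By limma 1 member, Mybl1, had an unadjusted p under 0.05, and limma-voom called 0. Mybl1 was at 0.76 (95% interval 0.03 to 1.49, limma adjusted p = 0.222), and was called without XYF mouse F8 (1.03, adjusted p = 0.0851) or without XYM mouse 9 (0.90, adjusted p = 0.0970). Without XYF mouse F9 and XYM mouse 9 it was at 0.98 (adjusted p = 0.113) and the count was 0, with 782 genes called over all tested. With every mouse 12 were called, with 1 mouse left out 0 to 1694, among them 749 without XYF mouse F8 and 1694 without XYM mouse 9, where Mybl1 was called, and 1197 and 808 without XXF mouse F3 and XYM mouse 15, where 0 members were. The calls of Mybl1, Nuggc, S1pr2 and Fas in males but not in females are therefore not shown to be a difference between the sexes.

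Males and females over both complements differed for 2 of the 7 members, Bcl6 higher and Rgs13 lower in males, and 7.32% of all tested genes were called. Both calls held with each mouse left out in turn, and without XYF mouse F9 and XYM mouse 9 Bcl6 was at 0.87 and Rgs13 at -0.75, again the 2 members called, with 1289 genes called over all tested against 1039 with every mouse and 837 to 1253 with 1 mouse left out. S1pr2 (-0.35, adjusted p = 0.0710), Nuggc (-0.45, adjusted p = 0.0689) and Fas (-0.43, adjusted p = 0.0105) were below 0 and under the fold threshold. Mybl1 was at 0.04, with a sign that turned under limma-voom (-0.038) and with a pseudocount of 0.1 (-0.017), and without XXF mouse F5, XYF mouse F6 or F7 or XYM mouse 16 (down to -0.077). The 19 mice are those of the comparisons between XX and XY.

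**Figure D2:**
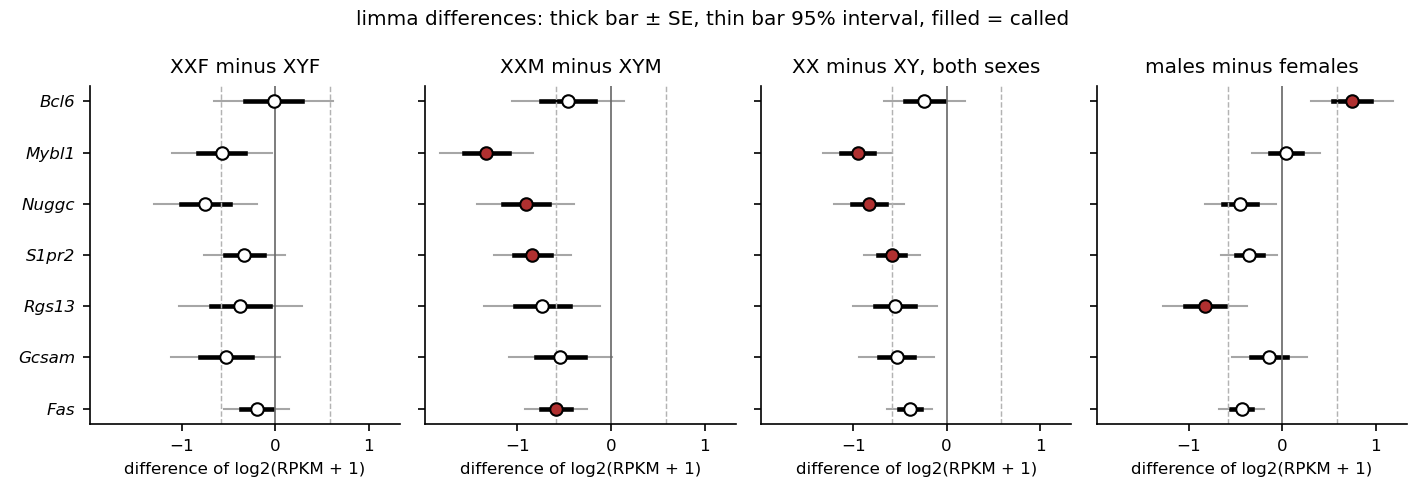
Difference of log2(RPKM + 1) (horizontal axes) for each member in 4 comparisons, with SE as thick and the 95% interval as thin bars; filled points were called and dashed lines mark the 1.5-fold threshold. Filled points are 4 in males, 3 over both sexes and 2 in males minus females, and 0 in females.

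Across the 19 mice, the 6 members other than Bcl6 were correlated with one another. Of the 21 pairs, the 15 without Bcl6 had a Pearson r of 0.507 to 0.901 and a Spearman rho of 0.546 to 0.879. Their permutation p values, adjusted over the 21 pairs, were 4.2e-05 to 0.0382 for r and 0.000105 to 0.0237 for rho, the lowest unadjusted p of 1e-05 being the smallest that 100000 permutations can give. These permutations ran over all 19 mice regardless of group, so differences between groups can enter the p values. Without the 2 mice farthest from the median of a single gene of each pair, r was 0.413 to 0.864. After group means were taken away, r among the 15 was 0.174 (Mybl1 and Fas) to 0.853 (Rgs13 and Nuggc), and this r was not tested. The pair with the highest r was S1pr2 and Nuggc. The 6 pairs with Bcl6 had r from -0.319 to 0.462 (rho -0.288 to 0.411, adjusted permutation p 0.0638 to 0.884 and 0.111 to 0.985), and -0.313 to 0.483 without the 2 mice farthest from the Bcl6 median. After group means were taken away they had r from -0.3 (Bcl6 and Fas) to 0.514 (Bcl6 and Mybl1), the latter above the 0.174 of Mybl1 and Fas, the 0.473 of Mybl1 and Rgs13 and of Gcsam and Fas, and the 0.512 of Fas and Nuggc.

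Genes most like the members over the 19 mice are named as a description. For the mean z-score of the 7 members, the highest Pearson r among tested genes outside them were those of Rassf6 (0.925), Ighe, the constant gene of IgE (0.907), Ackr4, an atypical chemokine receptor (0.902), the heavy chain variable gene Ighv8-8 (0.895), Zdhhc2 (0.888) and Car13 (0.882). Ighv14-3 (0.865), Ighv1-64 (0.863) and Art2a (0.857) followed. Variable genes resemble one another in sequence, and it is not stated how reads matching more than 1 were handled. For single members, the gene most like Bcl6 was Plcg2, a phospholipase of B cell receptor signaling (0.977), ahead of Cherp (0.969) and Eps15l1 (0.961). Mybl1 was most like Slc24a3 (0.923), Car13 (0.921) and Angptl2 (0.914). Mef2b, a transcription factor of the germinal center, was most like Nuggc (0.944) and the third for Rgs13 (0.828), after Ackr4 (0.936). Rassf6 stood at 0.901 for S1pr2 and 0.915 for Nuggc, and Ighe at 0.897 for S1pr2. Gcsam was most like Ighe (0.885), Pipox (0.879) and Rflna (0.862), and Fas most like the T and NK cell gene Cst7 (0.861), Izumo1r (0.854) and Iigp1 (0.834).

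The promoters of members called in a comparison are shown with short motifs of factors known in B cells. The set of promoter sequences used here, taken from RefSeq (GRCm38.p6), held 6 promoters of 5 members, each 300 bases long. This set held none for Mybl1 and Nuggc. Searched on both strands were the octamer ATGCAAAT (in 1.74% of 32851 promoters of the same length), a BCL6 motif TTCCTNGAA (1.59%), the cyclic AMP response element TGACGTCA (1.79%), the E-box CACGTG (7.15%) and the consensus motifs of NF-kappaB (8.46%) and MEF2 (3.19%). Capitals mark the motif found, and sequences are written 5′ to 3′ along the gene. A match is a description of letters and not a binding site.
S1pr2, chr9:20976744-20977043, minus strand, cyclic AMP response element from base -181: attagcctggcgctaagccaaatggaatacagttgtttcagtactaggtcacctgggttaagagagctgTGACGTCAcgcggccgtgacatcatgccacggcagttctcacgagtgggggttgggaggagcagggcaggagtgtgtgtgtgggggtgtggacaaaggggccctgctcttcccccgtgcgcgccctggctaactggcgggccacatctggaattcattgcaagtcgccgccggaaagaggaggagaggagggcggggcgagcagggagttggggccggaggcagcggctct
Fas, chr19:34290409-34290708, plus strand, E-box from base -110: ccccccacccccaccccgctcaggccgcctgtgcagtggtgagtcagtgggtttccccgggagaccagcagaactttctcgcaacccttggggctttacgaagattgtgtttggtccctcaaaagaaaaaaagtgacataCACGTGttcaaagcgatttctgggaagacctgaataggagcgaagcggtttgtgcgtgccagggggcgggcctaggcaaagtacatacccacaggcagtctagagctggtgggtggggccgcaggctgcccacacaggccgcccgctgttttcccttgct
Rgs13, chr1:144177323-144177622, minus strand, NF-kappaB motif from base -165: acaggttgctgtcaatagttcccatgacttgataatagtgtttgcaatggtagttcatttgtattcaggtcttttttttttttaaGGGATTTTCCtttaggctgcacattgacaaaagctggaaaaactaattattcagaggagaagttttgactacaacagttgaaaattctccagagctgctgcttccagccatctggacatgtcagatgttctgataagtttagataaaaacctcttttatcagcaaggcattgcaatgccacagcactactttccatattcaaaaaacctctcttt
Bcl6, chr16:23988803-23989102, minus strand, E-box from base -60: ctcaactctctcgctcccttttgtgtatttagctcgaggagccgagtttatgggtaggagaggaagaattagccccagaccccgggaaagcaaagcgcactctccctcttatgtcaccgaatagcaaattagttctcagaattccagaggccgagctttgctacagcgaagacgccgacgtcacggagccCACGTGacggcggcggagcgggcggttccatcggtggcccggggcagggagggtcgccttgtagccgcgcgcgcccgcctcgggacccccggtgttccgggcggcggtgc
Bcl6, chr16:23981234-23981533, minus strand, BCL6 motif from base -168: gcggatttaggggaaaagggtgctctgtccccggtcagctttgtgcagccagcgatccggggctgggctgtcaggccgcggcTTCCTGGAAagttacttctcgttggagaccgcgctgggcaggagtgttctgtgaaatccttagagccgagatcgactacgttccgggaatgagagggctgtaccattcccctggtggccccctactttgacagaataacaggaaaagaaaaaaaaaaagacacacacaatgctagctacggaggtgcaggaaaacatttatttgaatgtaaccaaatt

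Bcl6 and Fas thus held the E-box in common, and no other motif was found in 2 members. The Gcsam promoter held none of the 6 motifs, and the octamer and the MEF2 motif were in none of the members' promoters. S1pr2, Rgs13 and Fas held 3 different motifs, and a link of motifs to RNA levels was not tested.

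Other germinal center genes were read from lists. Of 12 transcription and chromatin regulators, 0 were called between XXF and XYF or between XXM and XYM, and 1 over both sexes: Mef2b was lower in XX mice (-0.73, limma adjusted p = 0.0740), a call lost without XXF mouse F4 or F5, XYF mouse F8 or F9, XXM mouse 2 or 7, or XYM mouse 13 or 16. In males minus females 3 were higher: Mef2c (0.70), Spib (0.79) and Ebf1 (0.90), all B cell transcription factors, which kept their calls with each mouse left out. Median differences of this list were 0.24 in females, 0.06 in males, 0.08 over both and 0.47 in males minus females. Its counts of 0 are by limma, and of its 12 genes 6 in females and 2 in males had an unadjusted p under 0.05, while limma-voom called 0 and 0.

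Among 11 genes of confinement and migration, 2 were higher in XXF than in XYF mice, Gpr183 (0.63) and S1pr1 (0.77), receptors that draw B cells outward or let lymphocytes leave. Rgs16, a regulator of G protein signaling like Rgs13, was lower in XXM than in XYM mice (-0.93, limma adjusted p = 0.0905) and over both sexes (-0.81, adjusted p = 0.0516), the latter with each mouse left out. The call in males was also lost with limma-voom (-1.37, adjusted p = 0.103). In males minus females Cxcr5 (0.69) and Ccr6 (0.65) were higher and Rgs1 (-0.63) lower. Calls were lost without single mice for Gpr183 (XXF F1, F2, F4 or F5, XYF F6 or F9, XXM 5, 6, 7 or 8, XYM 13 or 16), S1pr1 (XXF F1 or F5, XYF F6 or F9), Rgs16 in males (XXF F4 or F5, every XXM mouse, XYM 12, 13 or 16), Ccr6 (XXF F3, XYF F6) and Rgs1 (XYF F7 or F8, XYM 9). List medians were 0.23 in females and -0.08 in males.

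Of 18 genes that process DNA in class switching and mutation, among them Ung and Msh6, 0 were called in any of the 5 comparisons by limma. At an unadjusted p under 0.05 there were 2 in females, 6 in males, 5 over both, 2 in males minus females and 0 in the interaction, and limma-voom called 0, 0, 1, 0 and 0. Their summed level was between 301 and 364 RPKM in all 19 mice, with medians of 0.03 in females, -0.05 in males and -0.04 in males minus females.

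In the death receptor pathway of Fas, 11 genes were tested. Its ligand Fasl was higher in XXF, against XYF mice (0.96, limma adjusted p = 0.00144), and kept that call with each mouse left out. Fasl was also called in the interaction (0.96, adjusted p = 0.0877), and lost that call without any of 14 mice, XXF F1, F2, F4 or F5, any XYF mouse but F8, XXM 2, 6, 7 or 8, or XYM 12, 13 or 16. It was lost with limma-voom too (1.17, adjusted p = 0.1296). The survival gene Bcl2l1 was lower in males than in females (-0.87, adjusted p = 0.0379). Medians were 0.16 in females and 0.0031 in males.

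Follicular helper T cell markers, the cells that select germinal center B cells, were given by 8 genes, all listed, with Cxcr5 the most abundant (115 RPKM) and shared with B cells. Their sum was 231, 197, 160, 198 and 204 RPKM in XXF mice F1 to F5 and 126, 177, 195 and 115 in XYF mice F6 to F9. It was 149, 214, 214, 223 and 182 RPKM in XXM mice 2, 5, 6, 7 and 8 and 253, 219, 263, 269 and 131 in XYM mice 12, 13, 15, 16 and 9. In males the sum was thus higher in 4 of 5 XYM mice than in 4 of 5 XXM mice, and lowest in XYM mouse 9, where 6 of the 7 members, Fas excepted, were lowest in their group too. The inhibitory receptor Pdcd1 (-1.04, limma adjusted p = 0.0840) and the helper cytokine Il21 (-1.01, adjusted p = 0.0756) were lower in XXM than in XYM mice, and over both sexes at -0.73 and -0.72. Cd40lg was higher in XXF mice than in XYF mice (0.87) and, with Sh2d1a (-0.89), lower in males than in females (-0.85), and it was called in the interaction (1.45) by limma but not by limma-voom (1.78, adjusted p = 0.118). In XXM against XYM mice Cd40lg was at -0.58 and not called. The published study names CD40L among X-linked immune genes that can escape inactivation. The part of X linkage in the differences of Cd40lg was not tested. Leaving out 1 mouse ended the calls of Pdcd1 (any XXM mouse but 7, XYM 12, 13 or 16, XXF F5; over both sexes XXF F3, F4 or F5, XYF F6, F8 or F9, XXM 2, 7 or 8, XYM 13 or 16), of Il21 (XXM 2, 5 or 6, XYM 12, 13 or 16; over both sexes XXF F3 or F5, XYF F8 or F9, XXM 2, XYM 13 or 16) and of Cd40lg (XXF F1, F4 or F5, XYF F6 or F9; in the interaction also XXF F2, XYF F7, XXM 5, 6, 7 or 8, XYM 12, 13 or 16). The part of these cells in the members' differences was not tested.

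B cell markers summed to 3040, 2872, 2494, 2871 and 2792 RPKM in XXF mice F1 to F5, and to 1594, 2590, 2690 and 1364 in XYF mice F6 to F9. In males they summed to 3996, 4395, 3955, 4011 and 3668 RPKM in XXM mice 2, 5, 6, 7 and 8, and to 3758, 3134, 3894, 3603 and 2313 in XYM mice 12, 13, 15, 16 and 9. The sum was thus higher in XX than in XY mice on average, the direction opposite to that of the members. Of 8 markers, 6 were higher in males than in females, among them Cd79a (0.60), Cd22 (0.82), Pax5 (0.66), Cr2 (0.70) and Fcer2a (0.78). Cr2 was also higher in XXF against XYF mice (0.79) and over both sexes (0.59), and Pax5 in XXM than in XYM mice (0.90, limma adjusted p = 0.0602). In XX against XY mice all 8 markers were above 0 in females and 6 in males. Cd22 (-0.48) and Fcer2a (-0.42) were below 0 in males and not called. Single mice ended the calls of Cd79a (XXF F3, XYF F6 or F9, XXM 7, XYM 12, 15 or 16) and Pax5 (XYF F9) between sexes, of Cr2 over both sexes (XXF F1 or F4, XYF F6 or F9, XXM 2, 5 or 6, XYM 9) and of Pax5 in males (XXM 2, 5 or 6, XYM 12, 13 or 16). The part of B cell share in the members' differences was not tested.

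Set against the summed B cell markers of the same mouse, each member's mean was lower in XX than in XY mice in both sexes. This ratio is a description and was not tested. The mean B cell sum was itself higher in XX mice: 2814 RPKM in XXF and 2059 in XYF, 4005 in XXM and 3340 in XYM. Dividing by it therefore lowers the ratios of all members in XX mice. In females the mean RPKM of Bcl6 was 11.9 in XXF and 11.97 in XYF. Mybl1 stood at 0.408 ± 0.141 RPKM per 1000 RPKM of B cell markers in XXF (SD, n = 5), 1.24 ± 0.730 in XYF (n = 4), 0.171 ± 0.0523 in XXM (n = 5) and 0.993 ± 0.265 in XYM (n = 5). Fas stood at 4.30 ± 0.747 in XXF, 7.16 ± 1.63 in XYF, 1.86 ± 0.261 in XXM and 3.60 ± 0.837 in XYM, and was the member whose XXF and XYF mice did not overlap on this scale. In males, the ratios of Mybl1, Nuggc, S1pr2 and Fas did not overlap. The share of all tested genes whose ratios do not overlap was not counted. Bcl6 stood at 4.18 ± 1.26 in XXF, 6.36 ± 3.50 in XYF, 4.52 ± 1.84 in XXM and 7.26 ± 1.59 in XYM. The XXF and XXM means lay within the larger SD of each other. This was also so in RPKM (11.9 ± 4.27 in XXF and 17.9 ± 6.60 in XXM). XYF mouse F9 stood at 11.6 for Bcl6 on this scale and the other XYF mice at 4.31 to 5.11.

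**Figure D3:**
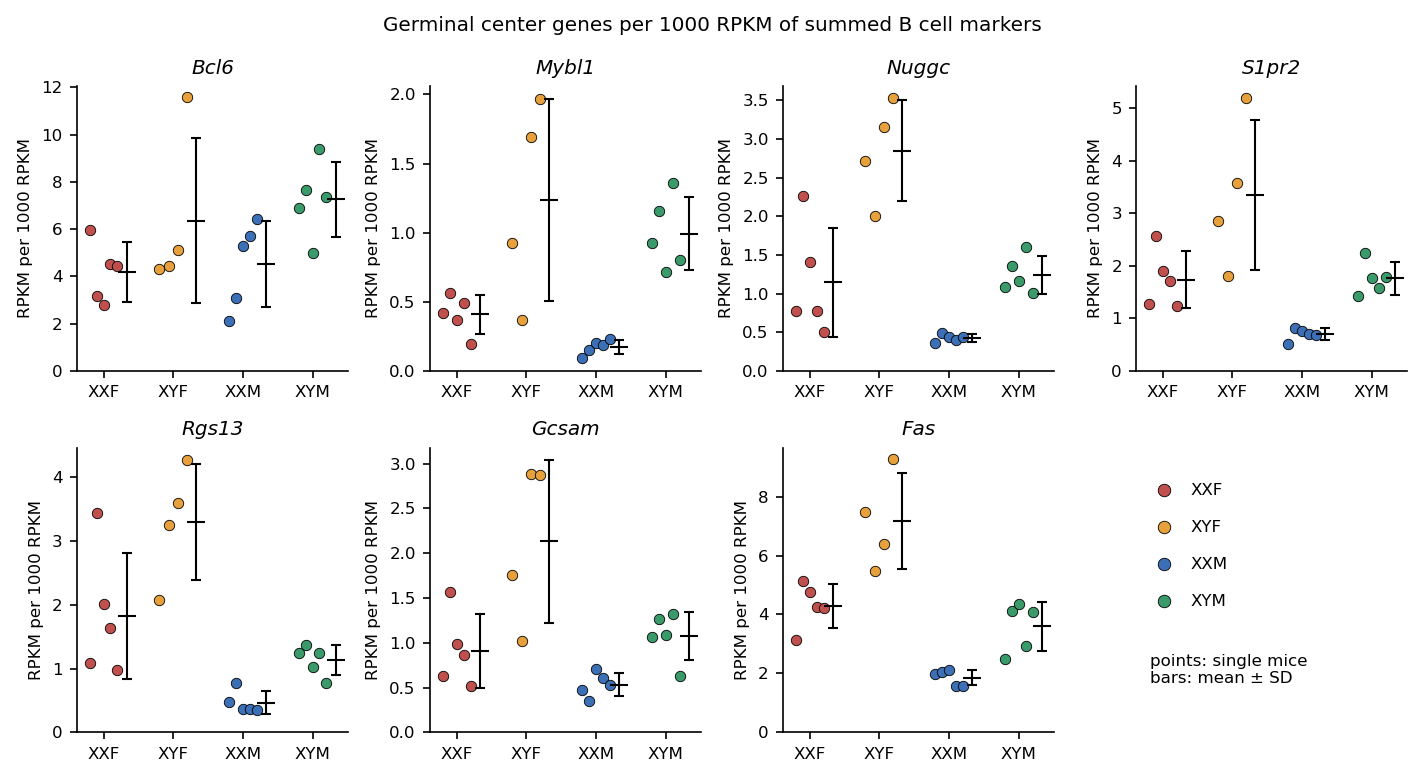
RPKM of each member per 1000 RPKM of summed B cell markers (vertical axes, from 0) in single mice (points) by group, with the mean and SD as bars. The Fas values of XXF mice end at 5.12 and those of XYF mice begin at 5.49.

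Markers of other spleen cells moved with the groups as well, and their part in the members' differences was not tested. T cell markers summed to 1020, 1459, 1315, 1049 and 1292 RPKM in XXF mice F1 to F5, 1027, 1307, 998 and 514 in XYF mice F6 to F9, 454, 481, 422, 317 and 314 in XXM mice 2, 5, 6, 7 and 8, and 509, 474, 652, 572 and 307 in XYM mice 12, 13, 15, 16 and 9, with Trac the most abundant (215 RPKM). Of 8, 7 were lower in males than in females: Cd3d (-1.43), Cd3e (-1.15), Cd3g (-1.44), Cd8a (-1.35), Cd8b1 (-1.70), Trac (-1.09) and Cd28 (-0.60). In XXM against XYM mice 4 were lower: Cd4 (-0.69), Cd8a (-0.77), Cd8b1 (-0.83) and Cd28 (-0.79). The XXM group, whose mean was the lowest of the 4 groups for 6 of the 7 members, also had the lowest mean T cell sum. That mean was 397 RPKM, against 503 in XYM. Single XXM and XYM mice overlapped in this sum, and XYM mouse 9 was the lowest of all at 307. Single mice ended the calls of Cd28 between sexes (XXF F5, XYF F8, XXM 2, XYM 9) and in males (XXM 2, XYM 12), and in males those of Cd4 (XXF F5, XXM 2, 5 or 6, XYM 12, 13 or 16), Cd8a (XXM 2, 5 or 6, XYM 12, 13 or 16) and Cd8b1 (XXF F4 or F5, XXM 2, 5, 6 or 7, XYM 12, 13 or 16). Cd28 was called in the interaction (1.35), and lost it without XXF F1, F2, F4 or F5, XYF F6 or F9, XXM 2 or 6, or XYM 12, 13 or 16.

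NK cell markers summed to 462, 541, 511, 623 and 589 RPKM in XXF mice F1 to F5, 217, 333, 234 and 109 in XYF mice F6 to F9, 472, 384, 443, 421 and 373 in XXM mice 2, 5, 6, 7 and 8, and 243, 236, 341, 186 and 85.6 in XYM mice 12, 13, 15, 16 and 9. They were higher in XX than in XY mice without overlap in either sex, opposite to the members. Of 6, led by Gzma (201 RPKM), 5 were higher in XXF than in XYF mice: Gzma (1.73), Klra8 (1.26), Klrb1c (1.46), Ncr1 (1.46) and Prf1 (1.005). In XXM against XYM mice 3 were higher, Gzma (1.40), Klra8 (1.31) and Klrb1c (0.91), and over both sexes 5, Gzma (1.57), Klra8 (1.28), Klrb1c (1.19), Ncr1 (1.10) and Prf1 (0.68). In males minus females Klra8 was at 0.87 and Klrd1 at -0.60. Single mice ended the calls in females of Gzma (XXF F5, XYF F6 or F9), Klra8 (XXF F4 or F5, XYF F6 or F9) and Prf1 (XXF F1, F4 or F5, XYF F6 or F9), in males of Gzma and Klrb1c (XXM 2, 5 or 6, XYM 12, 13 or 16), over both sexes of Prf1 (XYM 9) and between sexes of Klrd1 (XXF F2, XYF F6, F7 or F8, XXM 8, XYM 16 or 9).

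Plasma cell markers, the other outcome of B cell activation, summed to 767, 1514, 1527, 697 and 965 RPKM in XXF mice F1 to F5, 1804, 1520, 1858 and 1331 in XYF mice F6 to F9, 1409, 1330, 985, 1302 and 1236 in XXM mice 2, 5, 6, 7 and 8, and 1059, 1507, 1682, 1065 and 1575 in XYM mice 12, 13, 15, 16 and 9. Jchain held most of the sum (957 RPKM). Of 7 markers, Tnfrsf17 was lower in XXF than in XYF mice (-0.92, limma adjusted p = 0.0600), which was lost without XXF mouse F1, F4 or F5 or XYF mouse F6 or F9. Irf4 was higher in males than in females (0.73). In XX against XY mice the list median was -0.42 in females, with 4 markers below 0 and 3 above. In males it was -0.21, with 5 below and 2 above. Both medians had the direction of the members. By limma 4 markers in females and 2 in males had an unadjusted p under 0.05.

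Proliferation markers, which germinal center cells share with other dividing cells, summed to 160, 129, 157, 127 and 106 RPKM in XXF mice F1 to F5, 390, 110, 227 and 500 in XYF mice F6 to F9, 83.0, 66.0, 127, 99.7 and 151 in XXM mice 2, 5, 6, 7 and 8, and 86.3, 148, 80.8, 104 and 380 in XYM mice 12, 13, 15, 16 and 9. The sums were highest in XYF mice F6 and F9 and XYM mouse 9, while each member was highest in another mouse. XYF mouse F8, highest for S1pr2, Gcsam, Fas and Nuggc, followed at 227 RPKM. The most abundant gene was Top2a (42.0 RPKM). In XX against XY mice all 8 markers were below 0 in females (median -0.94) and over both sexes (-0.62), the direction of the members. In males 7 were (-0.26). By limma 0 were called, with 5, 5 and 0 at an unadjusted p under 0.05. Of 8, 5 were lower in males than in females: Mki67 (-0.85), Ccnb1 (-0.64), Ccnb2 (-0.80), Birc5 (-1.01) and Cdk1 (-0.86). Of these calls Birc5 and Cdk1 held with each mouse left out, Ccnb2 was lost without XYF mouse F6, Ccnb1 without XXF F3, XYF F6 or F9, XXM 5 or 7, or XYM 12, 15 or 16, and Mki67 without XXF F1 to F4, XYF F6, F8 or F9, XXM 2, 5 or 7, or XYM 12, 13, 15 or 16.

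Myeloid markers summed to 5109, 4119, 5318, 5894 and 4922 RPKM in XXF mice F1 to F5, 11660, 16171, 7360 and 45673 in XYF mice F6 to F9, 6334, 5809, 6329, 4864 and 4203 in XXM mice 2, 5, 6, 7 and 8, and 3124, 8255, 3972, 3390 and 46343 in XYM mice 12, 13, 15, 16 and 9. S100a9 was the most abundant (4978 RPKM), and of 8 markers Cd14 was lower in males than in females (-0.91). Erythroid markers, led by Hbb-bs (10148 RPKM), summed to 11516, 17582, 24920, 20528 and 14562 RPKM in XXF mice F1 to F5, 43933, 17885, 14268 and 32977 in XYF mice F6 to F9, 10338, 8331, 6352, 6459 and 12794 in XXM mice 2, 5, 6, 7 and 8, and 2082, 6194, 4494, 1388 and 13369 in XYM mice 12, 13, 15, 16 and 9. All 8 were lower in males than in females, among them Klf1 (-1.52), Alas2 (-1.50), Epb42 (-1.39), Hbb-bs (-1.81), Hba-a1 (-1.88), Tfrc (-0.92) and Slc4a1 (-1.49). Hba-a1 was higher in XXM than in XYM mice (1.55). The call of Tfrc was lost without XXF F3, XYF F6 or F9, XXM 5 or XYM 12 or 16, and that of Hba-a1 in males without XXF F2, F4 or F5, XXM 2, 5, 6 or 8, or XYM 12, 13 or 16.

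**Figure D4:**
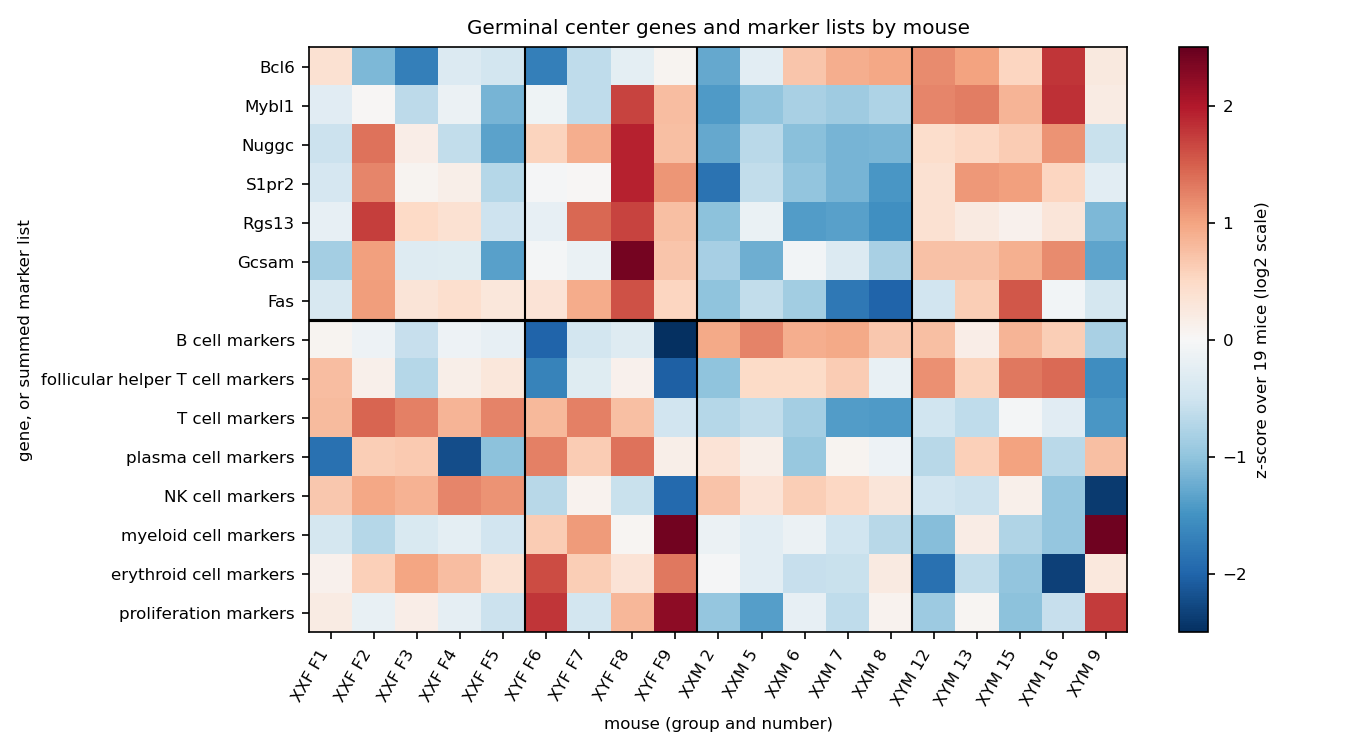
Colors give the z-score over 19 mice of log2(RPKM + 1) for each member and of the log2 summed level of 8 marker lists (vertical axis) by mouse (horizontal axis), with black lines between the 4 groups. The 6 members other than Bcl6 lie mostly low in the 5 XXM mice, and XYF mouse F9 and XYM mouse 9 hold the highest myeloid sums, 45673 and 46343 RPKM.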

How the data were processed

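PolyA RNA of splenocytes was sequenced in 19 mice, 1 library each. Per the labels and the published methods, Subread alignment to mm10 and featureCounts were followed by EdgeR tests of the authors; the deposited values are log2(RPKM + 1) per gene and mouse, with 0.0001 added. The 27179 listed genes were used as deposited, and 0 value columns lacked a sample. Whole read counts were recovered from the values for all 21317 genes with a read (tolerance 0.05 reads), with library sizes of 11263753 to 19962022 reads, so counting error is largest for Mybl1.

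Tested were 14186 genes: those at RPKM 0.5 or more in 4 or more mice, and the members. With limma 3.58.1 (R 4.3.3), each group was given a mean over all 19 mice, with empirical Bayes moderation and a trend with mean expression, for 5 comparisons: XX against XY in females, in males and over both, males against females, and the interaction. Benjamini-Hochberg adjustment ran over all tested genes, and calls needed an adjusted p under 0.1 and a difference over 1.5-fold on the log2(RPKM + 1) scale, the thresholds of the authors. Tests are two-sided. Single members were also tested by exact permutation of the label within the other factor, and pairs of members by 100000 permutations. The pipeline was tested on simulated data. Other tools were scipy 1.17.1, pandas 2.3.3 and numpy 2.4.6 under Python 3.11.15, with figures by matplotlib 3.10.9.

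The members and the 13 gene lists were chosen with earlier results of these data known. Named are all 7 members, every list gene called in at least 1 comparison and otherwise up to 4 genes of a list in list order, the 10 tested genes most like the members' mean z-score and the 3 most like each member; some genes of these lists and rankings are not reported here. Of the list genes, Fdcsp was not listed in the table.

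Alternatives were pseudocounts of 0.1 and 0.5, no filter, a filter at RPKM 1, median ratio rescaling, quantile normalization, array weights, the 2 compared groups alone, an adjusted p under 0.05, no fold threshold, limma-voom on the recovered counts, each mouse left out in turn and, chosen after seeing the data, XYF mouse F9 and XYM mouse 9 left out together. Promoter sequences are from RefSeq (GRCm38.p6), 300 bases each around the start.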

Additional observations from a re-analysis of the deposited data

Results flagged for a closer look

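In XYM mouse 9, the RPKM of Rgs13 (1.79, next lowest 3.99) and of Gcsam (1.47, next lowest 3.96) stood far under the other 4 XYM mice. On the scale of log2(RPKM + 1) the gaps were 0.812 and 0.821 of the group's range, against a critical value of 0.71 for 5 mice. The summed follicular helper T cell markers of the same mouse were 131 RPKM (next lowest 219), with a gap of 0.715 on the log2 scale. On the scale of RPKM itself the gap of this sum lies under the critical value. These 3 came from 64 groups looked at, and chance singles out about 1 in 20 groups. XYM mouse 9 also had the highest summed myeloid markers of its group, 46343 RPKM, and the part of these in its low values was not tested.

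The XX against XY effect differed between females and males, by limma's interaction test, for 3 genes of the lists: Cd28 (1.35, adjusted p = 0.0546), the helper signal Cd40lg (1.45, adjusted p = 0.0877) and the ligand of Fas, Fasl (0.96, adjusted p = 0.0877). Each of these calls was lost without XXF mouse F1, F2, F4 or F5, XYF mouse F6 or F9, XXM mouse 6 or XYM mouse 12, 13 or 16. Other single mice ended them for Cd28 (XXM 2), Fasl (XYF F7, XXM 2, 7 or 8) and Cd40lg (XYF F7, XXM 5, 7 or 8). With limma-voom Cd28 was still called (1.45, adjusted p = 0.0894), while Cd40lg (1.78, adjusted p = 0.118) and Fasl (1.17, adjusted p = 0.1296) were not. All 3 calls were lost with no filter and at an adjusted p under 0.05, and those of Cd40lg and Fasl also with a pseudocount of 0.1 and with quantile normalization. Of the 7 members, limma called 0 in this test, with 1 at an unadjusted p under 0.05, and limma-voom called 0.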

How the results depend on the processing

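For the 35 member differences, 1064 values under 12 alternatives and with each mouse left out were compared with those reported: 980 kept direction and side of the threshold, 33 kept direction and lost the call, 23 gained one and 28 changed sign. None of the changed signs belonged to a called value; they concern Bcl6 in females (0.069 with array weights, 0.13 without XYF mouse F9 and XYM mouse 9, -0.24 to 0.14 with 1 mouse left out), Mybl1 in males minus females (-0.017 with a pseudocount of 0.1, -0.038 with limma-voom, -0.077 to 0.18), and in the interaction Gcsam (-0.041 with median ratio rescaling, -0.082 with quantile normalization, -0.16 with array weights, -0.045 with limma-voom, -0.16 to 0.28) and Nuggc (-0.15 with array weights, -0.077 to 0.34). The cause was not tested.

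The count of members called in females was 1 with array weights and 0 to 1 with 1 mouse left out. In males it was 1 at an adjusted p under 0.05, 3 with the 2 groups alone or quantile normalization, 6 with array weights, and 1 to 6 with 1 mouse left out. Over both sexes it was 5 with array weights, 2 with quantile normalization and 2 to 5 with 1 mouse left out. In males minus females it was 5 with no fold threshold and 2 otherwise, and in the interaction 0, or 0 to 1 with 1 mouse left out. Without XYF mouse F9 and XYM mouse 9, chosen after seeing the data, it was 0 in females, 6 in males, 4 over both sexes, 2 in males minus females and 0 in the interaction. Of 75 calls of list genes, 0 of 2273 values changed sign and 319 lost the call. Limma-voom and a pseudocount of 0.1 each ended the same 3: Rgs16 in males, and Fasl and Cd40lg in the interaction. Quantile normalization ended these and Cr2 over both sexes, and Klrd1 and Mki67 in males minus females. Median ratio rescaling ended Gpr183 in females, Cr2 over both sexes and Cd79a in males minus females, and array weights these with Pax5 and Ccnb1 in males minus females. The pair of mice left out ended 6: S1pr1, Tnfrsf17 and Gpr183 in females, Cr2 and Prf1 over both sexes and Pax5 in males minus females. No filter ended 15, the groups alone 12 of 23 and an adjusted p under 0.05 ended 25, and a pseudocount of 0.5, a filter at RPKM 1 and no fold threshold ended 0.

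Among all tested genes, 196 were called in females, 420 in males, 244 over both sexes, 1039 in males minus females and 12 in the interaction. In females the counts were 88 with the groups alone, 103 at an adjusted p under 0.05, 345 with no fold threshold, 127 without the pair of mice and 56 to 850 with 1 mouse left out; median ratio rescaling moved the higher share from 48.5% to 35.3%. In males they were 121, 85, 1115, 876 and 51 to 1213, with 1027 under array weights and 211 with no filter. Over both sexes they were 395 with limma-voom, 413 with a pseudocount of 0.1, 983 with no fold threshold and 148 to 518; in males minus females 1714, 1700, 5468 and 837 to 1253. In the interaction they were 0 at an adjusted p under 0.05, 1910 with array weights, 4 with limma-voom, 6 with no filter or a pseudocount of 0.1, 8 with quantile normalization, 782 without the pair and 0 to 1694. The cause was not tested.

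With 4 or 5 mice a group, exact tests cannot fall under 0.00794 within a sex, and Mybl1 rests on as few as 16 reads in a mouse. Values are of whole splenocytes at 1 time.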
